A study of Rattus norvegicus with 4 samples.

Results

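The dystrophin-glycoprotein complex and the nitric oxide synthase it holds at the muscle membrane were followed through 7 gene symbols: Dmd, Dag1, Sgca, Sgcb, Sgcd, Sspn and Nos1. Members were all probe sets that the platform annotation pairs with exactly 1 of these symbols, which gave 15 of the 31042 non-control probe sets and 6 of the 14217 named genes. No probe set in the annotation table used here was paired with Sgcd, delta-sarcoglycan, so it was not analysed here. The 4 groups were genistein diet denervated, control diet denervated, genistein diet sham and control diet sham soleus of male Wistar rats, each 1 pool of RNA from 8 rats on 1 Affymetrix array. Rats started at 10 weeks of age (14 weeks by the sample labels) and ate, for 24 days, either a modified AIN-93G control diet with corn oil in place of soybean oil or AIN-93G with 0.05% genistein (0.5 g per kg), a soy isoflavone. On day 14 the left sciatic nerve was cut and the right leg sham-operated in every rat, and muscle was taken 10 days later. Sham muscle therefore comes from the opposite leg of operated rats, and pooling removes the spread between animals. With 1 array a group no test was run, and values describe these 4 pools.

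Dystrophin is a long rod-shaped protein that ties the actin cytoskeleton of the muscle fibre to dystroglycan in the membrane, and dystroglycan binds laminin outside the cell. The sarcoglycans and sarcospan form a subcomplex that steadies this link, and its loss in people and animals leads to muscular dystrophy. Syntrophins and dystrophin anchor the neuronal nitric oxide synthase nNOS under the membrane, and in mouse muscle nNOS is known to leave the membrane when the muscle is unloaded or denervated. An mRNA array reads transcript level and cannot show where a protein sits.

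The labels were checked first. The treatment field of 2 samples contradicts their titles, so groups were taken from titles. Chrna1, the acetylcholine receptor alpha subunit, read 16186 and 20550 units in genistein and control diet denervated muscle, against 1589 and 1860 units in the matching sham pools. Of the 5 label check genes, Chrna1, Chrng, Myog and Myh4 were at least 2-fold higher in denervated muscle on both diets, while Chrne, the adult epsilon subunit, was above the floor only in genistein diet denervated muscle (95.3 units). The floor was 78.9 units, the 40th percentile of all non-control signals, and lower signals were raised to it before taking log2. Slow muscle was well represented, with the slow troponin Tnni1 at 16382 to 36430 units over the arrays. For actin, the signal at the 3′ end over that at the 5′ end, a ratio that increases as RNA degrades, was 2.76 and 3.79 in genistein and control diet denervated muscle, against 2.32 and 2.08 in the sham pools. The same ratio for Gapdh went the other way, at 1.13 and 1.14 in the denervated pools, against 1.20 and 1.24 in the sham pools. The part of RNA quality in the results below was not tested.

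Dmd, dystrophin itself, was the member with the largest denervation ratio. Its only probe set, 1369810_at, read 202.7 units in genistein diet denervated and 196.9 units in control diet denervated muscle, against 40.2 units in genistein diet sham and 11.8 units in control diet sham muscle. Both denervated pools lay above the floor and both sham pools below it, so only a bound can be given. Denervated over sham, the Dmd signal differed by at least 2.57-fold upward on the genistein diet and by at least 2.50-fold upward on the control diet. As bounds, these log2 ratios of 1.36 and 1.32 exceeded those of 97.5% and 97.2% of all measured genes. Dmd counted as measured only through its denervated pools, so its bounds could only lie above 0, and the rank is no separate evidence of a difference. With the floor at the 20th percentile, 27.2 units, the log2 ratios were 2.33 on the genistein diet and, still as a bound, 2.86 on the control diet. In denervated muscle the genistein pool differed from the control pool by a log2 ratio of 0.04, and in sham muscle both diets were below the floor. The denervated readings lay above and the sham readings below the median signal of an array, which ran from 120.8 to 132.5 units, and with 1 probe set there is no second reading of the gene.

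What this Dmd probe set reads matters, because the gene makes long and short products from starts far apart. The annotation of the GRCr8 assembly lists 20 Dmd transcripts. Its promoter table, with 250 bases before to 50 after a start, holds 3 Dmd windows, of which the second begins 2073 kilobases downstream of the first and the third overlaps the second. The first and second windows are shown to make the contrast between the starts visible, and the Sspn window because sarcospan was lower on most of its probe sets (below). Sequences are from RefSeq, GRCr8, plus strand, read 5′ to 3′, and capitals mark an E-box (CANNTG, the motif of myogenic factors such as myogenin) or a CArG box (the motif of serum response factor). Both motifs read alike on either strand.
Dmd first window, chrX:51205836-51206135: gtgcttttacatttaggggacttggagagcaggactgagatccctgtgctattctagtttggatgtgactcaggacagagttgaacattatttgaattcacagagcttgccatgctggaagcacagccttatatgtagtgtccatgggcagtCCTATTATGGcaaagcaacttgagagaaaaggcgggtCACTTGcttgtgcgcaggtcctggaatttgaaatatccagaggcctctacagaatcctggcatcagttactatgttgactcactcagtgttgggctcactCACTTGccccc
Dmd second window, chrX:53278763-53279062: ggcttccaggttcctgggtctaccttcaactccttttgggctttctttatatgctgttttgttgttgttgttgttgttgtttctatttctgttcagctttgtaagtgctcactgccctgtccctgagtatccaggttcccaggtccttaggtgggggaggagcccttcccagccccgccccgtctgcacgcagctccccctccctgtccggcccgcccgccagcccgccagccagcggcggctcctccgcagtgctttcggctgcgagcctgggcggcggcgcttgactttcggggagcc
Sspn window, chr4:180627632-180627931: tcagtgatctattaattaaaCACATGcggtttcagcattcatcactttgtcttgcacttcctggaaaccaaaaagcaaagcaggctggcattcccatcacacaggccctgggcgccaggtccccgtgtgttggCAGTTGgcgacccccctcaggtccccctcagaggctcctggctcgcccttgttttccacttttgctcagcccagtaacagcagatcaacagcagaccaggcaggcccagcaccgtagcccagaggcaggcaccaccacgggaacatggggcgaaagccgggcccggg

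The first Dmd window held 1 CArG box, CCTATTATGG, and 2 E-boxes, with a GC content of 47.3%. The second window held neither motif and had a GC content of 61.3%. The Sspn window held 2 E-boxes and no CArG box. Of 33469 promoter windows of the same length in the table, 72.1% held an E-box and 1.64% a CArG box, so an E-box is what most promoters have. These matches describe the letters only. No source used here says which start the transcripts read by the Dmd probe set come from, so the higher signal in denervated muscle is that of a Dmd transcript and was not assigned to the long muscle product or to a short one.

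**Figure D1:**
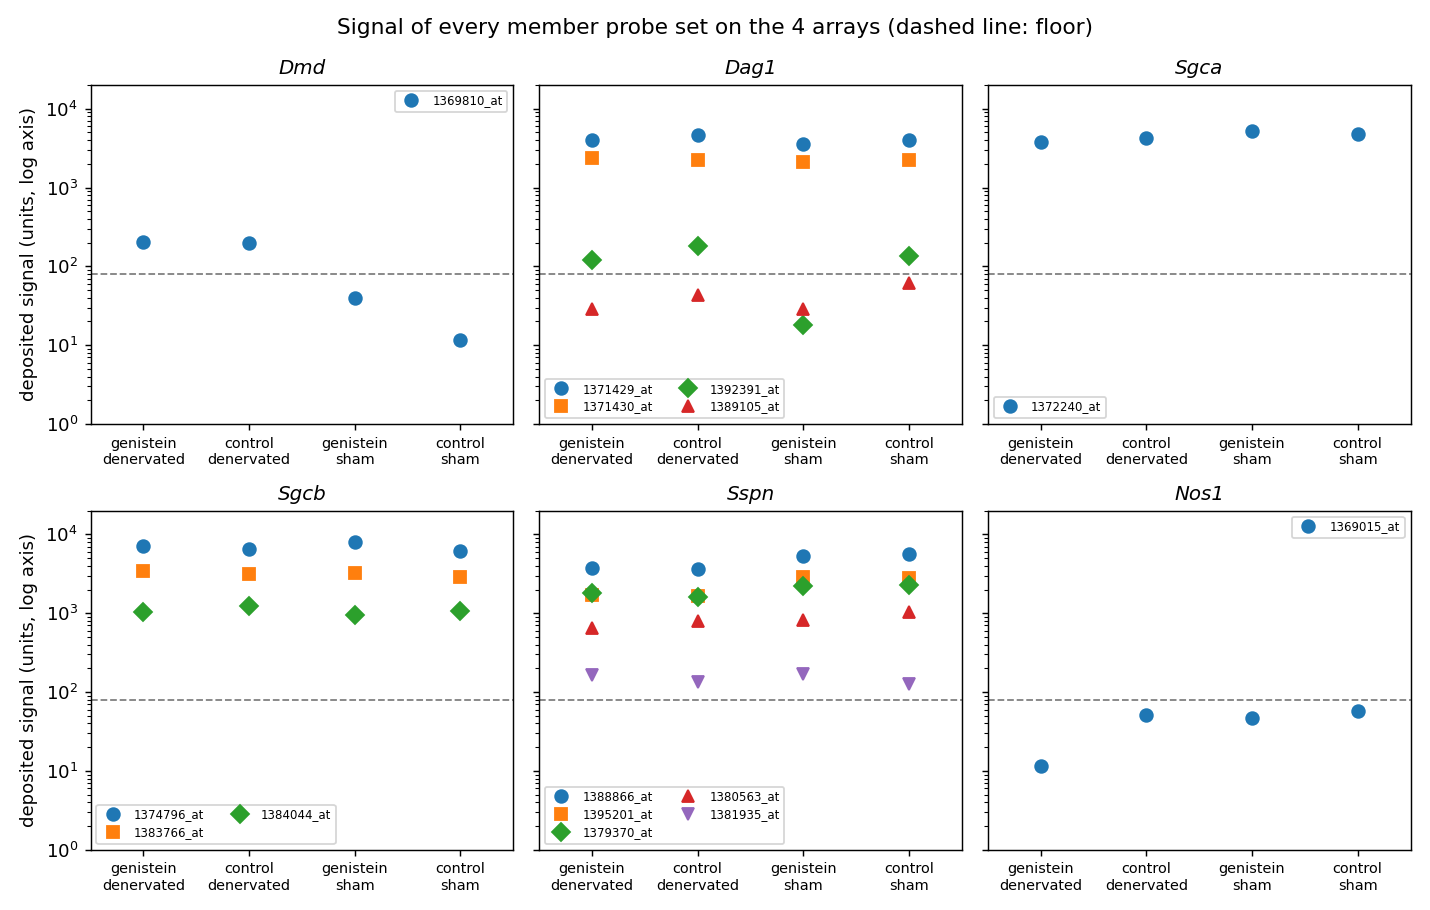
Deposited signal (log axis, units) of each probe set of the 6 genes, with 1 point per array and the 78.9-unit floor as a dashed line. Dmd lies above the floor in both denervated pools and below it in both sham pools, Nos1 lies below it on all 4 arrays, and the brightest Dag1, Sgca and Sgcb probe sets differ by less than 2-fold between arrays.

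Dag1, whose single precursor is cut into the laminin-binding alpha and the membrane-spanning beta dystroglycan, differed little between denervated and sham muscle. Its brightest probe set, 1371429_at, read 3997 units in genistein diet denervated and 4591 units in control diet denervated muscle, against 3559 and 4037 units in the sham pools of those diets. The denervation log2 ratios were 0.17 on the genistein diet and 0.19 on the control diet. A second bright probe set, 1371430_at, stayed between 2118 and 2375 units on all 4 arrays, with ratios of 0.16 and 0.01. Both differences were smaller than the scatter between probe sets of 1 gene, whose SD about the gene mean was 0.36 for denervation on the genistein diet and 0.35 on the control diet over 2310 genes with several probe sets. That SD leaves out scatter between pools.

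The other Dag1 probe sets were dim. 1392391_at read 119.1 and 183.8 units in genistein and control diet denervated muscle, against 18.1 and 137.0 units in genistein and control diet sham muscle. The low reading in the genistein sham pool put it at least 1.51-fold higher in denervated muscle on that diet and 1.34-fold higher on the control diet. 1389105_at was below the floor on every array (28.8 to 61.0 units). The genistein sham pool was also the lowest of the 4 on both bright probe sets, but there its ratio to the control sham pool was only -0.18 and -0.09 on the log2 scale.

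The sarcoglycans, single-pass membrane proteins of the complex, also stayed within 2-fold. Sgca, the muscle-specific alpha-sarcoglycan, read 3806 units in genistein diet denervated and 4287 units in control diet denervated muscle, against 5209 and 4735 units in genistein and control diet sham muscle on its 1 probe set. The log2 ratios, denervated over sham, were -0.45 on the genistein diet and -0.14 on the control diet. Only the first is larger than the probe set SD. Scaled on the hybridisation controls, the ratios were 0.08 and 0.24, but that scaling put the median of all genes at 0.53 and 0.36, and relative to it Sgca stood at -0.45 and -0.13.

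Sgcb, beta-sarcoglycan, had 3 probe sets. The brightest, 1374796_at, read 7151 units in genistein diet denervated and 6582 units in control diet denervated muscle, against 8003 and 6093 units in the sham pools. Its denervation ratios, -0.16 on the genistein diet and 0.11 on the control diet, had opposite signs, and the pools overlapped. The other 2 probe sets gave 0.10 and 0.14 on the genistein diet and 0.12 and 0.18 on the control diet. Every one of these values is within the probe set SD, and the sign of the genistein diet value of 1374796_at turned positive under quantile normalization (0.14) and under scaling on the hybridisation controls (0.37, which is -0.16 relative to the median of all genes).

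Sspn, sarcospan, a small protein with several membrane passes that binds the sarcoglycans, had denervation ratios below 0 on all 5 of its probe sets on the genistein diet and on 4 of 5 on the control diet. The brightest, 1388866_at, read 3796 units in genistein diet denervated and 3659 units in control diet denervated muscle, against 5319 and 5626 units in the sham pools. Probe set 1395201_at read 1719 and 1671 units in the denervated pools, against 2861 and 2838 units in the sham pools. In both probe sets the 2 diets lay close together.

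The denervation log2 ratios of Sspn were -0.49 on the genistein diet and -0.62 on the control diet for the brightest probe set, and -0.73 and -0.76 for 1395201_at. 1379370_at gave -0.30 and -0.52, and 1380563_at gave -0.33 and -0.38. The dimmest, 1381935_at, read 126.0 to 169.4 units and gave -0.06 and 0.08. On the brightest probe set Sspn stood at percentile 18.6 of all measured genes on the genistein diet and percentile 16.5 on the control diet. Scaled on the hybridisation controls the ratios were 0.05 and -0.24, and relative to the median of all genes under that scaling Sspn stood at -0.48 and -0.60.

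Nos1, the nNOS gene, was not measurable on these arrays. Its only probe set, 1369015_at, read 11.7 units in genistein diet denervated and 50.9 units in control diet denervated muscle, against 46.7 and 57.2 units in genistein and control diet sham muscle. All 4 readings were below the floor, so no ratio is given. A reading below the floor says nothing about how much nNOS protein the fibres hold.

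**Figure D2:**
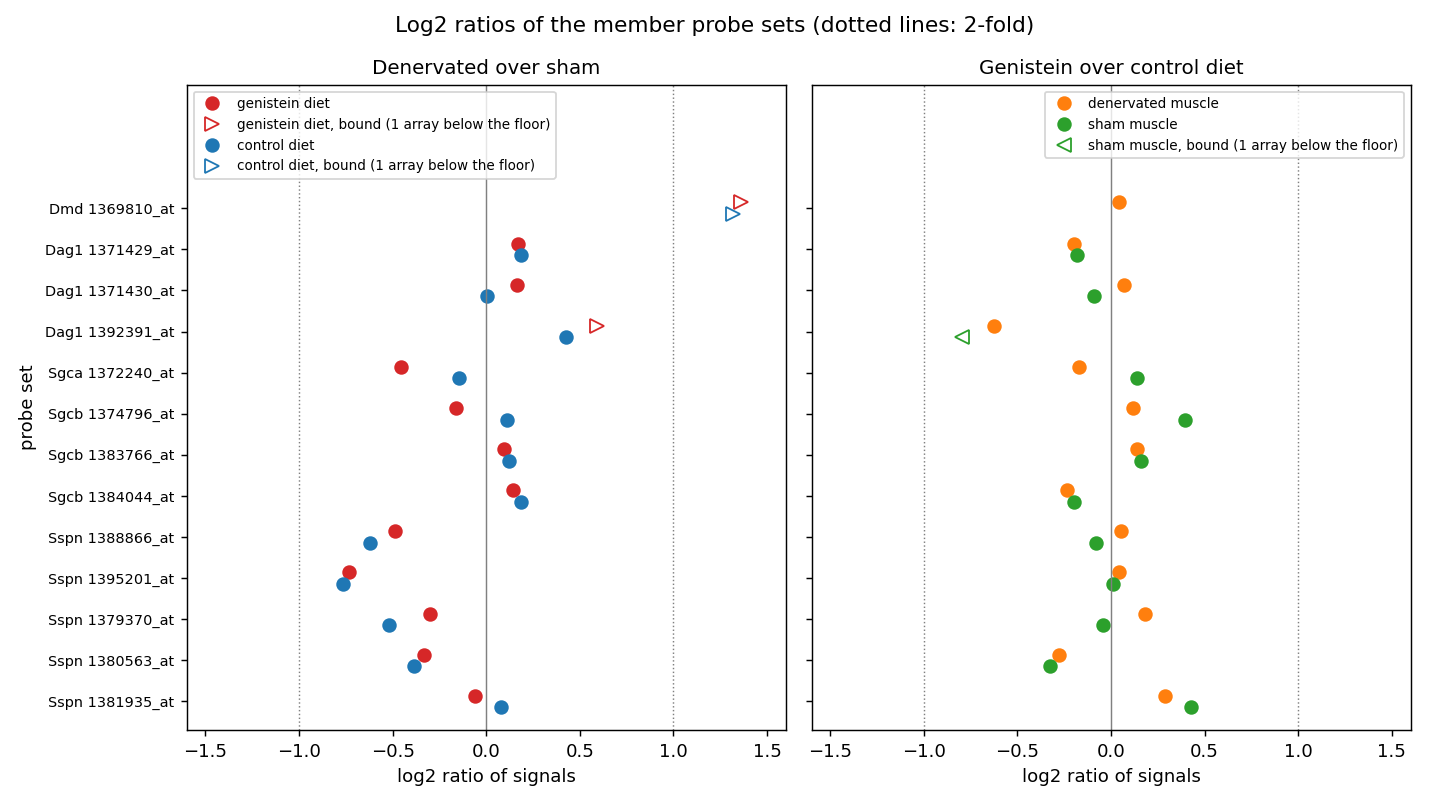
Log2 ratio of each member probe set with a signal above the floor, denervated over sham (left) and genistein over control diet (right), with 2-fold as dotted lines and open triangles for bounds. Only the Dmd bounds pass 2-fold, the Sspn points lie mostly left of 0 in the denervation panel, and the diet ratios scatter around 0.

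Set beside all genes, Dmd was the only measured member past 2-fold for denervation. At 2-fold in either direction 1 of 5 measured members passed on each diet, against 11.5% of 10810 genes on the genistein diet and 12.7% of 10755 genes on the control diet. The 1 member passed upward, where the shares of all genes were 4.96% and 5.04%, and 0 passed downward, where they were 6.57% and 7.63%. With both sham pools below the floor, Dmd was measured only through its denervated pools and could not have passed downward. With so few members, 1 of 5 is not a share that can be told from these backgrounds. The members' median log2 ratio was -0.16 on the genistein diet and 0.11 on the control diet, beside 0.02 and -0.0029 for all measured genes. Among the 11 member probe sets above the floor on all 4 arrays, ratios ran from -0.73 to 0.17 on the genistein diet and from -0.76 to 0.19 on the control diet.

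The study's main question was whether dietary genistein alters the response to denervation. On the brightest probe sets of these genes differences between the diets in denervated muscle were small. In denervated muscle, genistein over control, Dmd had a log2 ratio of 0.04, Dag1 -0.20, Sgca -0.17, Sgcb 0.12 and Sspn 0.05 on the brightest probe sets, where the probe set SD was 0.25. Some dimmer probe sets lay beyond that SD, with -0.63 for Dag1 1392391_at, -0.28 for Sspn 1380563_at and 0.29 for Sspn 1381935_at. None of the 5 genes passed 2-fold, against 1.15% of 10479 genes that did. Dividing each array by its median put the median of all genes at -0.13 and gave Dmd -0.09, Sgcb -0.01 and Sspn -0.08, which relative to that median are 0.04, 0.12 and 0.05. Quantile normalization gave Dmd -0.06, Sgcb 0.21 and Sspn 0.11, so the sign of Dmd turned.

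In sham muscle, genistein over control, Sgcb had a log2 ratio of 0.39, Sgca 0.14, Sspn -0.08 and Dag1 -0.18, with a probe set SD of 0.26. None of the 4 measured members passed 2-fold, against 0.610% of 10819 genes. The Sgcb value is larger than the SD, but its other probe sets gave 0.16 and -0.20. Dimmer probe sets beyond the SD were Dag1 1392391_at, at -0.80 as a bound, and Sspn 1380563_at and 1381935_at, at -0.33 and 0.43. The denervation effect itself, genistein minus control diet, differed by -0.02 for Dag1, -0.31 for Sgca, -0.27 for Sgcb and 0.13 for Sspn. All were within the probe set SD of 0.34 for that difference. For Dmd no such difference can be given. Both its sham pools were raised to the floor, so the value would only repeat its ratio in denervated muscle. These diet and denervation ratios share arrays with each other, so they are given side by side and not compared.

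The proteins around the complex were described through 6 lists of 99 related genes, of which 78 were on the array. The lists were chosen with earlier results of these data known. Their counts, here and below, are therefore descriptions and no independent evidence that a list differs from all genes. In denervated muscle 12 of 72 measured genes on the genistein diet and 23 of 68 on the control diet were at least 2-fold lower, beside the 6.57% and 7.63% of all genes given above, and 1 was at least 2-fold higher on each. Scaled on the hybridisation controls, 3 of 72 and 7 of 69 were lower and 5 and 2 higher. That scaling put the medians of all genes at 0.53 and 0.36, so these counts are not directly comparable with those above. Of the other membrane proteins of the complex, Cav3, the muscle caveolin that binds beta-dystroglycan and nNOS, read 1013 and 1193 units in genistein and control diet denervated muscle, against 3255 and 4026 units in the sham pools, log2 ratios of -1.68 and -1.75. Dtna, alpha-dystrobrevin, gave -0.52 and -0.48 on its brightest probe set and down to -1.07 and -0.68 on another, Sgce, epsilon-sarcoglycan, 0.06 and -0.79, and Utrn, utrophin, the dystrophin relative found at the endplate, 0.10 and -0.30. Of the 10 measured enzymes that build or supply the sugar chain of dystroglycan, 0 passed 2-fold on either diet, with medians of 0.08 and 0.13. The highest was Pomgnt1, an enzyme that extends the mannose-linked sugar, at 0.67 and 0.50.

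Ligands outside the fibre had mostly negative denervation ratios. Of 15 basement membrane and ligand genes, 0 on the genistein diet and 9 on the control diet passed 2-fold downward. Of all genes, 6.57% and 7.63% did. The list medians were -0.70 and -1.07. Scaled on the hybridisation controls, 0 passed downward on either diet, with medians of -0.16 and -0.69, where those of all genes were 0.53 and 0.36. The difference between the diets was not tested. Lama2, the laminin alpha chain of the muscle basement membrane, gave -0.76 and -0.85. Those past 2-fold on the control diet were the laminin chains Lama4 (-0.66 and -1.20), Lamb1 (-0.70 and -1.26) and Lamc1 (-0.93 and -1.21), Nid1, the laminin linker nidogen (-0.84 and -1.07), and the collagens Col4a1 (-0.85 and -1.26), Col4a2 (-0.90 and -1.04), Col6a1 (-0.93 and -1.32), Col6a3 (-0.52 and -1.32) and, as a bound on the control diet and named after its values were seen, Col6a2 (-0.76 and -1.22). Under scaling on the hybridisation controls the genistein diet ratio of Col6a3 was 0.02, below the median of all genes, 0.53. A second Nid1 probe set gave 0.39 and -0.11, a second Col6a3 probe set -0.35 and -0.65, and a second Col6a2 probe set -0.69 and -0.42. Lama5, named after its values were seen, went the other way, at 696.0 and 942.7 units in genistein and control diet denervated muscle against values below the floor (genistein sham) and 133.9 units (control sham). Its 3 probe sets disagreed, with denervation ratios down to 0.01 on the genistein diet and -0.25 on the control diet.

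Genes of the costamere, the rib-like anchor that runs from the sarcomere to the membrane beside dystrophin, included the largest differences. Itgb1bp2, melusin, which binds the integrin beta tail, read 507.3 and 396.3 units in genistein and control diet denervated muscle, against 4639 and 4988 units in the sham pools, log2 ratios of -3.19 and -3.65. The ankyrin Ank3 gave -1.90 and -1.86, talin 2 (Tln2) -1.31 and -1.48, alpha-actinin 2 (Actn2) -1.32 and -1.37, filamin C (Flnc), which binds sarcoglycans, -1.05 and -1.03, and the kinase Ilk -0.57 and -1.09. Plectin (Plec) read 1933 and 2431 units in genistein and control diet denervated muscle, against 3869.7 and 4224 units in the sham pools, and passed 2-fold on the genistein diet only. Some of these genes have a probe set that did not pass 2-fold, at -0.07 for Tln2 and -0.85 for Ank3 on the genistein diet and at -0.63 and -0.65 for Flnc on the genistein and control diets. Of the 17 measured genes, 6 on each diet passed downward, beside 6.57% and 7.63% of all genes on the genistein and control diets. Scaled on the hybridisation controls, where the medians of all genes were 0.53 and 0.36, 2 and 3 did. In contrast Itgb1, the integrin beta subunit, was at 0.21 and 0.17 and vinculin (Vcl) at -0.03 and -0.05.

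**Figure D3:**
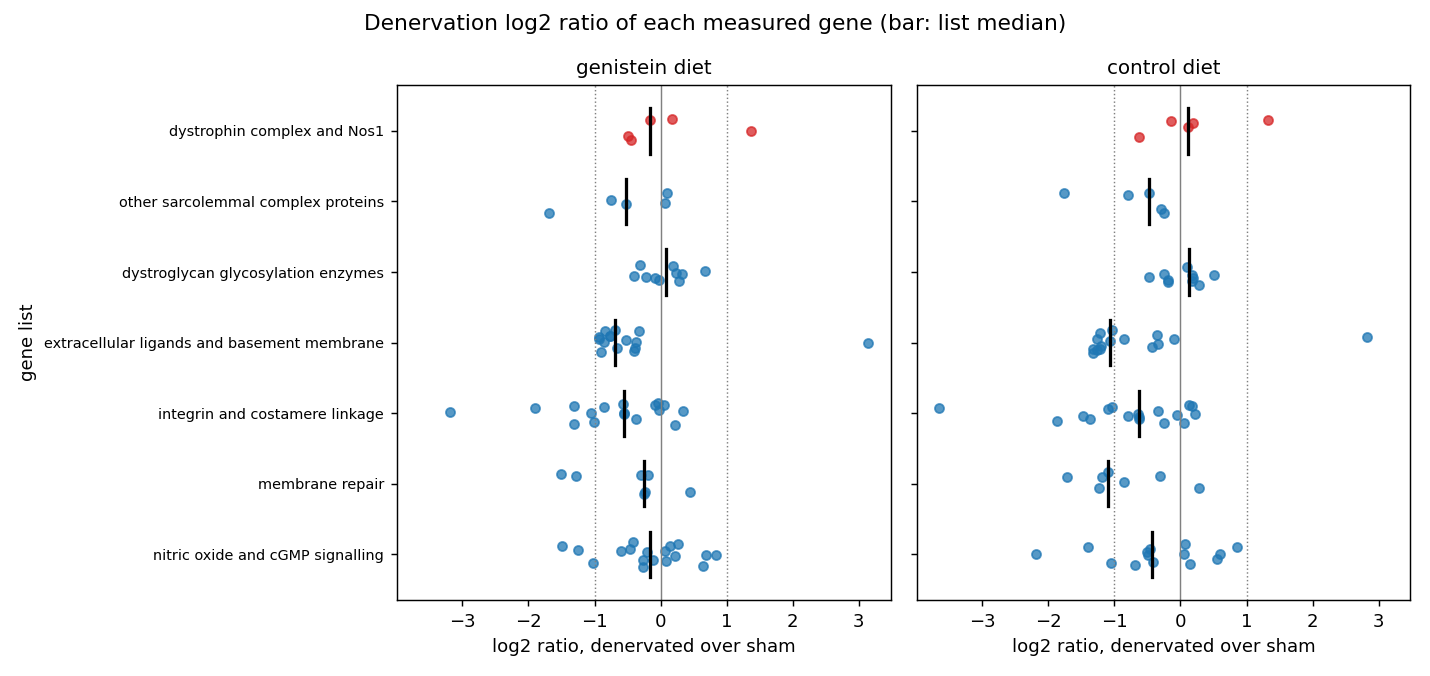
Denervation log2 ratio of each measured gene (points) and the median (bar) for the members and the 6 lists of related genes, genistein diet left and control diet right. The basement membrane list has its median at -0.70 on the genistein diet and -1.07 on the control diet, while the glycosylation enzymes lie around 0. Bounds are the points of Dmd on both diets, of Lama5, Nos2, Nos3 and Ass1 on the genistein diet and of Col6a2 on the control diet.

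Of 7 membrane repair genes, 2 on the genistein diet and 4 on the control diet were at least 2-fold lower. Of all genes, 6.57% and 7.63% were. Scaled on the hybridisation controls, where the medians of all genes were 0.53 and 0.36, 0 and 1 of the repair genes were. Trim72, the repair protein MG53, gave -1.27 and -1.24, the muscle calpain Capn3 -1.50 and -1.72, and the annexins Anxa1 (-0.25 and -1.10) and Anxa2 (-0.30 and -1.18) passed on the control diet. Scaled on the hybridisation controls, the genistein diet ratios of Anxa1 and Anxa2 were 0.29 and 0.23, both below the median of all genes, 0.53. Dysf, dysferlin, which patches membrane tears, gave 0.44 and 0.28. In the nitric oxide list Ddah2, an enzyme that clears a natural inhibitor of nitric oxide synthases, gave -1.03 and -1.39, Cavin2, a caveolar coat protein, -1.50 and -2.19, and Pfkm, a glycolytic enzyme that binds nNOS in muscle, -1.25 and -1.05. Another Pfkm probe set missed 2-fold, at -0.89 on the genistein diet, as did 1 on the control diet at -0.69. Nos3, the endothelial synthase, and Nos2, the inducible one, were each above the floor on 1 array only.

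Among these related genes above the floor on both arrays, those highest on genistein over control in denervated muscle were Cavin2 (0.87), Anxa1 (0.83) and Col6a3 (0.72), and those lowest were Dtnb, beta-dystrobrevin (-0.70), Lama5 (-0.44) and Gmppb (-0.42). In sham muscle the highest were Agrn, agrin (0.44), Tln1 (0.43) and Pomk (0.43), and the lowest Itga7, the laminin-binding integrin alpha subunit (-0.56), Gmppb (-0.47) and Pomgnt1 (-0.39). None passed 2-fold in either comparison, beside 1.15% and 0.61% of all genes in denervated and sham muscle.

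Whole muscle holds other cells that also use parts of this complex, and their markers differed between the pools. The summed signal of 6 fibroblast markers was 37309 and 22091.5 units in genistein and control diet denervated muscle, against 49683 and 48752 units in the sham pools, with 1 and 4 of the 6 at least 2-fold lower on the genistein and control diets. The sum of 6 endothelial markers was 2834 and 1933 units in denervated muscle, against 3980.4 and 3927 units in sham muscle, with 0 and 3 of 6 at least 2-fold lower. For 6 smooth muscle markers the sums were 1661 and 1231.5 units, against 2567 and 2537 units, with 1 and 2 of 5 measured at least 2-fold lower and Cnn1 below the floor throughout. Of all genes, 6.57% and 7.63% were at least 2-fold lower. The sums moved in the same direction as most basement membrane genes, as did the fibre markers below, with 9 of 9 ratios below 0 on each diet. On the genistein diet 2 fibroblast, 1 endothelial and 1 smooth muscle marker had denervation ratios above 0, and on the control diet 0, 0 and 1. The part of these cells in the basement membrane result was not tested.

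The sum of 5 Schwann cell and nerve markers was 4496.5 and 3400.5 units in genistein and control diet denervated muscle, against 3473 and 3423 units in sham muscle. Sox10 was below the floor throughout, and most of each sum was Pmp22, at 3824.7 and 2943.2 units in the denervated pools. Of 4 measured, 1 (Mbp) was at least 2-fold higher on the genistein diet and 0 on the control diet, beside 4.96% and 5.04% of all genes. Over its probe sets Mbp ran from 1.09 to 1.64 on the genistein diet and from -0.01 to 1.01 on the control diet. The sum of 7 macrophage and leukocyte markers was 3126 and 1661 units, against 3121 and 2804.5 units. On genistein over control in denervated muscle, 3 of the 7 were at least 2-fold higher, where 1.15% of all genes passed in either direction. The 9 fibre markers summed to 204524 and 240315 units in denervated muscle, against 321798 and 356208 units in sham muscle. At least 2-fold lower were 2 of 9 on each diet, beside 6.57% and 7.63% of all genes. In RNA of whole muscle, fewer cells of a type and less RNA per cell cannot be told apart, and this holds for each of the member values above.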

How the data were processed

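Each array's deposited values are linear signal intensities made by the authors, with GCOS 1.1 per the submitters' processing notes. No source used here states the scaling target. The mean intensity after trimming 2% of probe sets at each end was 500.2 units on all 4 arrays, so the deposited scaling was kept. Of 31099 probe sets, 57 controls were set aside and 20826 had 1 gene symbol, of which 20758 matched RefSeq identifiers.

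With Python 3.11.15 and pandas 2.3.3, signals under the 40th percentile (78.9 units) were raised to it before log2. A gene was represented by its probe set of highest mean log2 signal, and measured where at least 1 compared array exceeded the floor. With 1 array a group no test was run. Size was set against 2-fold and against the SD of log2 ratios among probe sets of a gene. The number of arrays limits the precision.

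The members and lists were chosen with earlier results of these data known. All members were named, with related genes past 2-fold in denervation and above the floor on all arrays, and the 3 highest and 3 lowest for diet. Genes most like a member were to be named for members at least 2-fold different and above the floor on all arrays, which held for 0. The code was tested on simulated data. Alternatives were 3 other scalings, floors at the 20th and 60th percentile or none, and the mean or median of probe sets.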

Additional observations from a re-analysis of the deposited data

Results flagged for a closer look

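For 3 genes, an effect had opposite signs in the 2 settings compared, each with 1 array a group, and none of these differences was tested. The denervation log2 ratio of Sgcb was -0.16 on the genistein diet and 0.11 on the control diet, a difference of -0.27. The genistein over control ratio of Sgca was -0.17 in denervated and 0.14 in sham muscle, a difference of -0.31. That of Sspn was 0.05 in denervated and -0.08 in sham muscle, a difference of 0.13. All 3 differences are smaller than the SD of 0.34 among probe sets of a gene.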

How the results depend on the processing

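With 1 array a group, no replicate could be left out. Of 72 summary values recomputed under 8 alternatives, 65 stayed within 1.5 times the main count or within 1 probe set SD of the main median, and 7 did not. Without a floor, 2 members passed 2-fold for denervation on the genistein diet (Nos1 as well as Dmd), and 1 passed in each diet comparison, all on signals below 78.9 units on at least 1 array. With the floor at the 60th percentile, Dmd was no longer measured and 0 of 4 members passed for denervation on either diet. Scaled on the hybridisation controls, the members' median denervation ratio was 0.37 on the genistein diet and 0.49 on the control diet, where the median of all genes was 0.53 and 0.36. That scaling left 3 and 7 related genes at least 2-fold lower on the genistein and control diets, where the deposited scaling gave 12 and 23, and 5 and 2 at least 2-fold higher. Of 149 recomputed ratios of single members, 135 stayed within 1 SD and 14 did not. Some could not move. Sgca, with 1 bright probe set, kept its ratios under every floor and under the mean or median of probe sets. A change of sign was sought only past 2-fold, which left the Dmd denervation bounds, and these could only lie above 0. Smaller ratios of Dmd, Sgca, Sgcb and Sspn did change sign under some scalings. Signal over background limits Dmd and Nos1, which were below the floor on some or all arrays.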
